A study of Homo sapiens with 34 samples.

Results

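The cytosolic ribosomal protein genes were taken by symbol from the GENCODE 44 protein-coding genes on chromosomes 1 to 22 and X: RPL or RPS followed by a digit, plus RPLP0, RPLP1, RPLP2 and RPSA, without the RPS6K kinases. This rule gave 89 of 19970 genes. They comprised 46 genes of the large and 31 of the small ribosomal subunit (77 core genes), 8 paralogs of core genes, 3 readthrough genes that share a promoter with RPS10, RPL17 or RPL36A, and RPS19BP1, which carries the symbol but encodes no ribosomal subunit. A gene was called occupied in a peak list if a peak summit lay within 1 kb of the 5′ end of the gene, taken as its transcription start site (TSS). The rule itself uses symbols alone.

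Binding of RBPJ and SOX2 was profiled by ChIP-seq in MB157R cells and in their parental line MB157, a triple-negative breast cancer line whose growth depends on a rearranged NOTCH1. MB157R had been selected for resistance to a γ-secretase inhibitor, which blocks NOTCH activation, over 25 weeks at 1 µM. MB157 iSOX2 cells carried a doxycycline-inducible vector for HA-tagged SOX2 and were compared with MB157 iEV cells, which carried the empty vector. MB157R iN1-ICD cells carried an inducible NOTCH1 intracellular domain and were compared with MB157R iEV cells, again with the empty vector, and MB157R iEV cells were compared with MB157 iEV cells. Every culture, the empty-vector controls included, had received 1 µg/ml doxycycline for 72 h, and all cells descended from 1 line. The 34 libraries held 22 immunoprecipitations in 8 groups (3 each, with 1 for the HA antibody in MB157 iEV) and 12 inputs in 4 groups. Libraries of a group were pooled by the authors before peak calling, which left 1 list and 1 value per gene for each condition. No spread between replicates, and hence no test of a difference, could be had, and all intervals given cover counting error only. The lists held between 77 peaks (HA control of MB157 iEV) and 108203 peaks (HA-SOX2 of MB157 iSOX2) on these chromosomes, and the genome background recovered from the deposited values, which follows sequencing depth, was 1.60 to 2.24 fragments for all lists except the HA control (0.524). Promoters of 6 liver, blood and muscle markers held a summit at 0 genes in 7 of the 8 lists and at 1 gene in the HA-SOX2 list, whereas the RBPJ lists had a summit at 2 to 4 of 5 epithelial and at 2 to 3 of 3 mesenchymal marker promoters.

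Ribosomal protein genes are among the most highly transcribed genes of a growing cell, and their products are made in matched amounts for the assembly of the ribosome. Their promoters usually start transcription at a C within a run of pyrimidines, the TCT initiator, which gives the mRNA the 5′ terminal oligopyrimidine (TOP) tract through which mTOR signaling controls translation. The NOTCH intracellular domain reaches its target genes by joining RBPJ on DNA, at motifs with the core TGGGAA. SOX2, a regulator of stem cell identity, recognises ACAAAG or ACAATG. Both forms were searched for with the wider pattern ACAANG.

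The 7 genes of highest RBPJ fold in MB157R iEV each had an RBPJ core motif within 100 bp of the summit, and the match nearest to the summit is shown for each. All are hg38 sequence in the direction of the gene, 5′ to 3′, with the core motif in capitals (TGGGAA, or TTCCCA where it lies on the other strand).
RPL39, chrX:119791740-119791769, minus strand: aaccagcgcgctTTCCCAcggcgccacggg
RPS27A, chr2:55232172-55232201, plus strand: acttccggcccgTTCCCAcgctccggaaac
RPL11, chr1:23691739-23691768, plus strand: ctgtggttagccTGGGAAaagagcccgcct
RPS25, chr11:119018473-119018502, minus strand: ggcggtgcggctTGGGAActagaatccact
RPL5, chr1:92832032-92832061, plus strand: gctgtggcccttTTCCCAccccctagcgcc
RPL23A, chr17:28719962-28719991, plus strand: gctataagcccgTGGGAAcgagcattggag
RPS28, chr19:8321124-8321153, plus strand: aggcctgagtggTTCCCAggccaggagagg
The match was centred 12 bp from the summit at RPL39, 20 bp at RPS27A, 10 bp at RPL11, 66 bp at RPS25, 8 bp at RPL5, 6 bp at RPL23A and 2 bp at RPS28. RPL39, RPS27A, RPL5 and RPL23A had the longer form GTGGGAA on one or the other strand. Relative to the start of the MANE Select transcript, the reference transcript agreed between annotations, the match was at -124 bp in RPL39, -52 bp in RPL11, -8 bp in RPL23A and 6 bp in RPL5, and at -144 bp in RPS25, -358 bp in RPS28 and -502 bp in RPS27A. Another protein-coding gene starts on the opposite strand within 1 kb of the TSS of RPS25 (TRAPPC4), RPS28 (NDUFA7) and RPS27A (CLHC1), and a gene without a symbol does so at RPL39.

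Whole promoters, from 250 bp before to 10 bp after the MANE start, are given for RPL39 and RPL11, which were occupied by RBPJ in all 4 RBPJ lists, and for RPS27 and RPS3, which were called in 0 of them. Capitals again mark TGGGAA or TTCCCA.
RPL39 promoter, chrX:119791621-119791880, minus strand: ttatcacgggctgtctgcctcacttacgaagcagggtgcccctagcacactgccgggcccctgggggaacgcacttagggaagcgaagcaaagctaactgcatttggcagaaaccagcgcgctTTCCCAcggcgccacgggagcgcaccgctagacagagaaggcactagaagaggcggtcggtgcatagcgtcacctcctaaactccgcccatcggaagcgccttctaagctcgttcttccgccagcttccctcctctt
RPL11 promoter, chr1:23691556-23691815, plus strand: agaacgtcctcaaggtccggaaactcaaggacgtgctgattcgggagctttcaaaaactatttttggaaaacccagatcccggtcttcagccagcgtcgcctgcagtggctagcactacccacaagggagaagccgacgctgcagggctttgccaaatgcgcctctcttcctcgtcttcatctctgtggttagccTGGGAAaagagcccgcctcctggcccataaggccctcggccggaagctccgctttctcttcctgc
RPS27 promoter, chr1:153990512-153990771, plus strand: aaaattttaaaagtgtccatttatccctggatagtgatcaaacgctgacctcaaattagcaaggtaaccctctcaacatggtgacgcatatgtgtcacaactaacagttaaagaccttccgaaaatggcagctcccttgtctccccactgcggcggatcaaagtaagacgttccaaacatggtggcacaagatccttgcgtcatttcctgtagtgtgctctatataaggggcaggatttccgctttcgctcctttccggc
RPS3 promoter, chr11:75399268-75399527, plus strand: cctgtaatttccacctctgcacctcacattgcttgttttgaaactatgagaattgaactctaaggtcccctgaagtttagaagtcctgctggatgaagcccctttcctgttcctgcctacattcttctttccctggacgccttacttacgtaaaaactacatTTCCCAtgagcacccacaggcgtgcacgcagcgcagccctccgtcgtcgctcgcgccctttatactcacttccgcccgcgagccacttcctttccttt
All 4 promoters have the pyrimidine-rich start typical of the family. RPL39 and RPL11 hold 1 core motif each and RPS27 holds 0. RPS3 also holds 1, and no RBPJ summit was called there.

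RBPJ was called at 48.3% to 87.6% of ribosomal protein promoters, in each list a larger share than among promoters in general. A promoter summit was present at 60 of the 89 genes in MB157 iSOX2 (67.4%, against 50.4% of all protein-coding genes), at 57 in MB157R iN1-ICD (64%, against 43%), at 78 in MB157R iEV (87.6%, against 56.1%) and at 43 in MB157 iEV (48.3%, against 38%). The same shares for the core genes alone were 72.7%, 64.9%, 89.6% and 53.2%. Genes for mitochondrial ribosomal proteins, 78 genes whose products form a separate ribosome, had shares of 73.1%, 69.2%, 88.5% and 60.3%, each above that of the 89 genes, although in MB157R iEV below that of the core genes. Called ribosomal protein promoters were not stronger than others: their median fold enrichment at the summit, the deposited ratio of fragments to local input background, was 4.40 in MB157 iSOX2, 5.17 in MB157R iN1-ICD, 6.03 in MB157R iEV and 4.95 in MB157 iEV, against 4.94, 5.13, 6.38 and 5.10 for all called promoters.

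**Figure D1:**
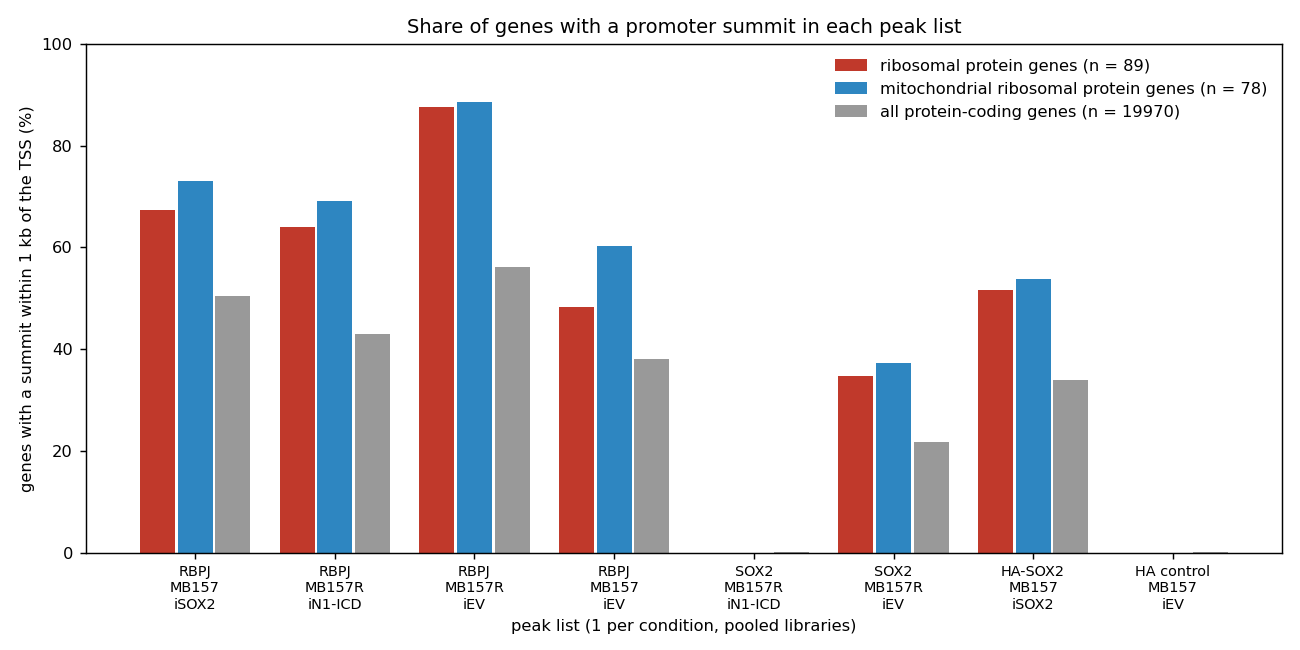
Share of genes with a peak summit within 1 kb of the TSS (vertical axis, percent) in each of the 8 peak lists, for the 89 ribosomal protein genes, the 78 mitochondrial ribosomal protein genes and all 19970 protein-coding genes. Each bar is 1 pooled list, so there are no error bars. The ribosomal protein genes reach 87.6% in the RBPJ list of MB157R iEV and 0% in the SOX2 list of MB157R iN1-ICD and in the HA control.

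Both subunits were occupied to a similar extent. In MB157 iSOX2 33 of 46 large and 23 of 31 small subunit genes were called, in MB157R iN1-ICD 30 and 20, in MB157R iEV 40 and 29, and in MB157 iEV 25 and 16. Altogether 29 of the 89 genes had a promoter summit in all 4 RBPJ lists (32.6%, against 25.7% of all genes) and 10 in none (11.2%, against 34.9%). The 29 constantly called genes included RPL5 and RPL11, whose products form the 5S particle with 5S rRNA and bind the p53 regulator MDM2. They also included RPLP1 and RPLP2 of the acidic P stalk, which recruits translation factors, while the stalk base RPLP0 was called in 3 lists and not in MB157 iSOX2. Of 12 genes mutated in Diamond-Blackfan anemia, an inherited red cell aplasia, 9 were called in MB157 iSOX2, 11 in MB157R iN1-ICD, 11 in MB157R iEV and 6 in MB157 iEV, which were 75%, 91.7%, 91.7% and 50% of them, against 67.4%, 64%, 87.6% and 48.3% of all 89 genes. Of these 12 only RPL35A was missed in all 4 lists. RPS29, 1 of the 12 and of the 29 constantly called genes, was counted at the 5′ end of its gene model. At its MANE start, 12784 bp away, it had folds of 3.95 in MB157 iSOX2, 5.13 in MB157R iN1-ICD and 6.13 in MB157R iEV. No RBPJ summit was called there in MB157 iEV.

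**Figure D2:**
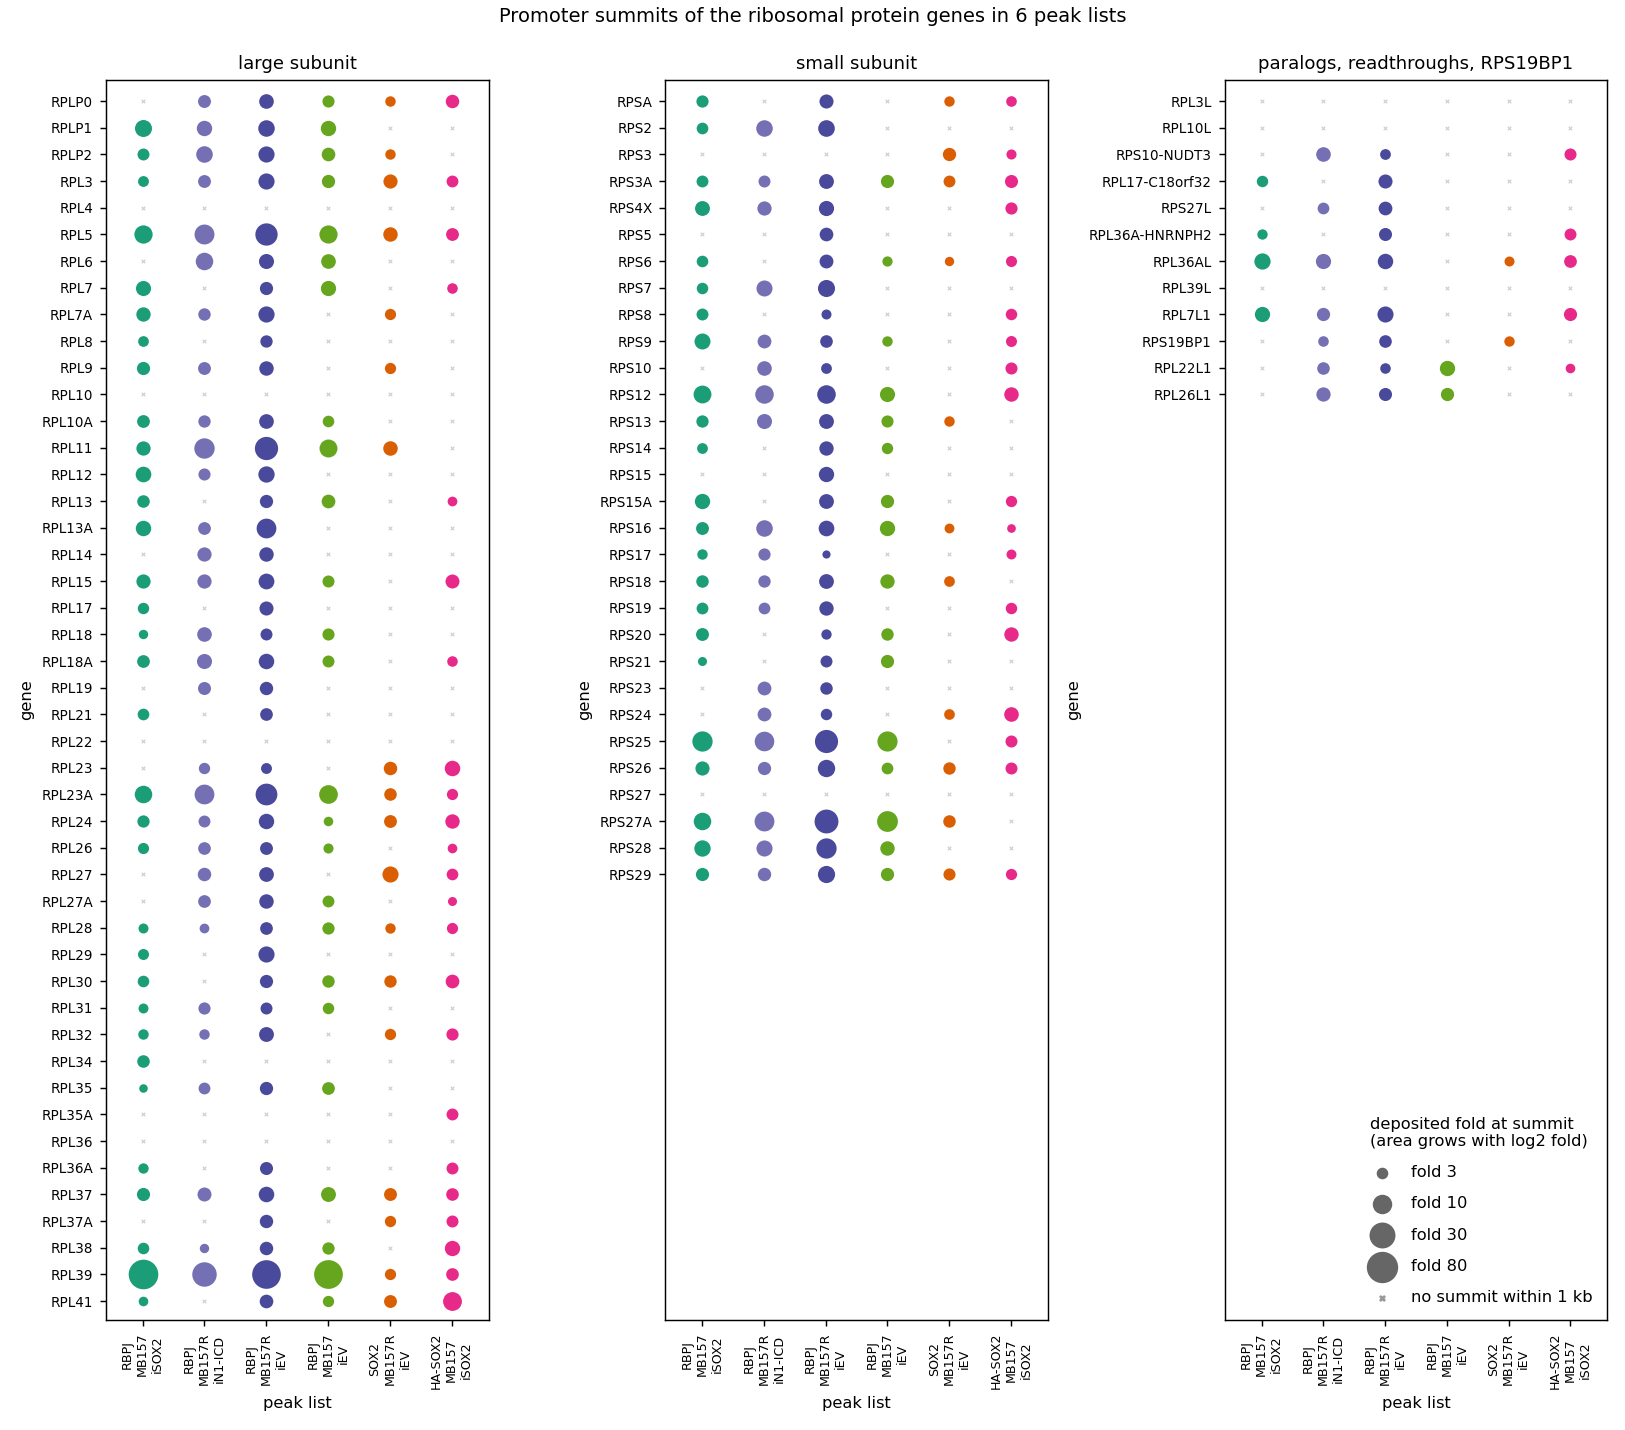
Of the 89 genes, 88 (rows) in the 4 RBPJ lists, the SOX2 list of MB157R iEV and the HA-SOX2 list of MB157 iSOX2 (columns). The area of a dot grows with the log2 of the deposited fold at the promoter summit and a small cross stands for no summit within 1 kb. RPL39 has the largest RBPJ dots in all 4 lists, up to a fold of 81.3.

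RPL39, a small protein that lines the exit tunnel of the nascent peptide, stood far above all other members. Its RBPJ fold was 81.3 in MB157 iSOX2, 31.9 in MB157R iN1-ICD, 68.0 in MB157R iEV and 69.2 in MB157 iEV. These values rest on 358 (95% Poisson interval 322 to 397), 95 (76.9 to 116), 206 (179 to 236) and 221 (193 to 252) fragments at the summit, and exceeded the folds of at least 99.7% of all called promoters in each list. The summit lay 135 to 172 bp upstream of the start in all 4 lists. Of the other proteins of the exit tunnel, RPL17 had a fold of 3.81 in MB157 iSOX2 and 5.67 in MB157R iEV and was not called in the other lists, and RPL4 was not called at its 5′ end.

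The next highest folds were shared by a small set of genes. RPS27A, which encodes a ubiquitin fused to a small subunit protein, had folds of 9.77 in MB157 iSOX2, 14.4 in MB157R iN1-ICD, 28.7 in MB157R iEV and 16.9 in MB157 iEV. RPS25, a small subunit protein used by several viral internal ribosome entry sites, had folds of 15.4, 13.8, 25.3 and 15.1 in the same order of lists. The 5S particle genes reached similar values. RPL5 had folds of 11.1, 14.6, 21.8 and 10.9, and RPL11 had 5.83, 15.8, 25.8 and 10.5. RPL23A, which sits beside the mouth of the exit tunnel, had folds of 9.80, 14.2, 20.0 and 11.9. RPS12, a protein of the head of the small subunit, reached the highest 5 in MB157 iSOX2 with 10.3 and had 11.5, 11.6 and 6.65 in the other lists. RPL11 in MB157 iSOX2 and RPS12 in MB157 iEV were the weakest of these, above 67.2% and 75.7% of all called promoters.

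The RBPJ core motif was not common at these promoters, but it was more frequent among the highest folds. In windows of 100 bp to each side of the RBPJ summit, TGGGAA was found on either strand at 26.7% of called ribosomal protein promoters in MB157 iSOX2 (31.6% of all called promoters), 22.8% in MB157R iN1-ICD (33.2%), 20.5% in MB157R iEV (28.5%) and 18.6% in MB157 iEV (35.3%). Among the 10 members of highest fold, however, it was found at 6 in MB157 iSOX2, 7 in MB157R iN1-ICD, 8 in MB157R iEV and 6 in MB157 iEV. Among the remaining called members the shares were 20%, 12.8%, 11.8% and 6.06%. The median fold in MB157R iEV was 9.03 for the 16 members with the motif and 5.67 for the 62 without it, against 7.65 and 6.02 over all called promoters. In MB157 iEV it was 11.4 for 8 members with and 4.43 for 35 members without the motif, against 5.92 and 4.83 over all called promoters. The motif search was added after the folds had been seen, and a match is a description of the sequence and not a measured binding site.

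**Figure D3:**
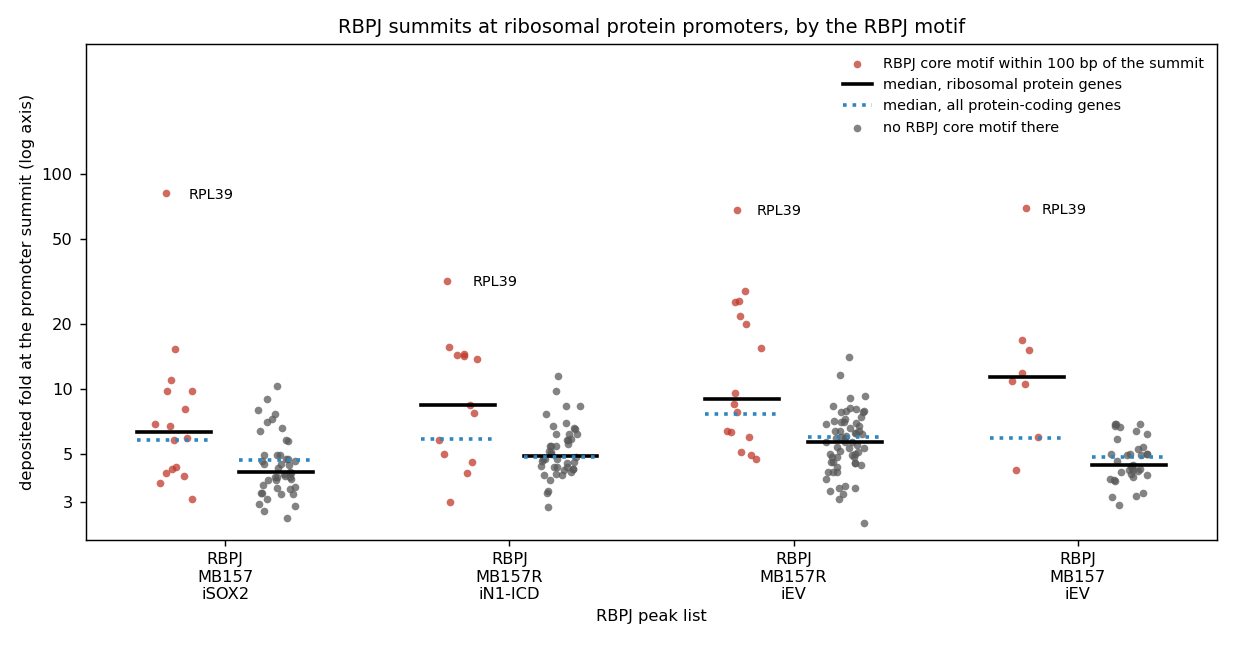
Deposited fold at the RBPJ promoter summit (log axis) for each called ribosomal protein gene in the 4 RBPJ lists, split by whether the RBPJ core motif lies within 100 bp of the summit. Points are genes with a horizontal jitter, black bars are their medians and dotted blue bars the medians of all called protein-coding promoters. In MB157R iEV the medians of the ribosomal protein genes are 9.03 with and 5.67 without the motif.

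The promoters shared other sequence features. From 250 bp before to 50 bp after the MANE start, CCGGAA, the core of ETS factor motifs, was found on either strand at 55.1% of the ribosomal protein genes, 60.3% of mitochondrial ribosomal protein genes and 22.8% of all protein-coding genes. A C followed by 4 pyrimidines stood exactly at the annotated start of 59 of the 89 genes (66.3%), against 6.41% of mitochondrial ribosomal protein genes and 4.59% of all genes. By class this start was present in 34 of 46 large subunit genes, 24 of 31 small subunit genes, 1 of 8 paralogs and 0 of 3 readthrough genes. TGGGAA was found at 28.1% of these windows (22.2% of all genes), ACAANG at 32.6% (28.9%) and the SP core GGGCGG at 60.7% (61.3%). The TCT start was thus a feature of the cytosolic and not of the mitochondrial genes, whereas the ETS core was frequent in both.

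RBPJ summits of ribosomal protein genes lay mostly upstream of the start. Their median position relative to the MANE start was -136.5 bp in MB157 iSOX2, -138 bp in MB157R iN1-ICD, -100.5 bp in MB157R iEV and -237 bp in MB157 iEV, against -110, -136, -108 and -136 bp for all called promoters. In mitochondrial ribosomal protein genes the medians were -34, -32.5, -28 and -33 bp. Some of the members' summits were nearer to another protein-coding start than to that of the ribosomal protein gene: 9 of 60 in MB157 iSOX2, 9 of 57 in MB157R iN1-ICD, 7 of 78 in MB157R iEV and 4 of 43 in MB157 iEV, among them those of RPS18 (VPS52), RPS29 (LRR1) and RPL18 (SPHK2). This was not counted over all called promoters, so it cannot be called particular to the members. Members with any TSS on the opposite strand within 1 kb were called more often (29 of 34 in MB157 iSOX2, 25 in MB157R iN1-ICD, 33 in MB157R iEV and 21 in MB157 iEV) than the 55 members without one (31, 32, 45 and 22). Over all genes, whatever their neighbours, RBPJ was called at 50.4%, 43%, 56.1% and 38% in the same order of lists. The split by neighbour was not made for all genes, so the contrast cannot be called particular to these members. The part of such neighbours in the calls was not tested.

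**Figure D4:**
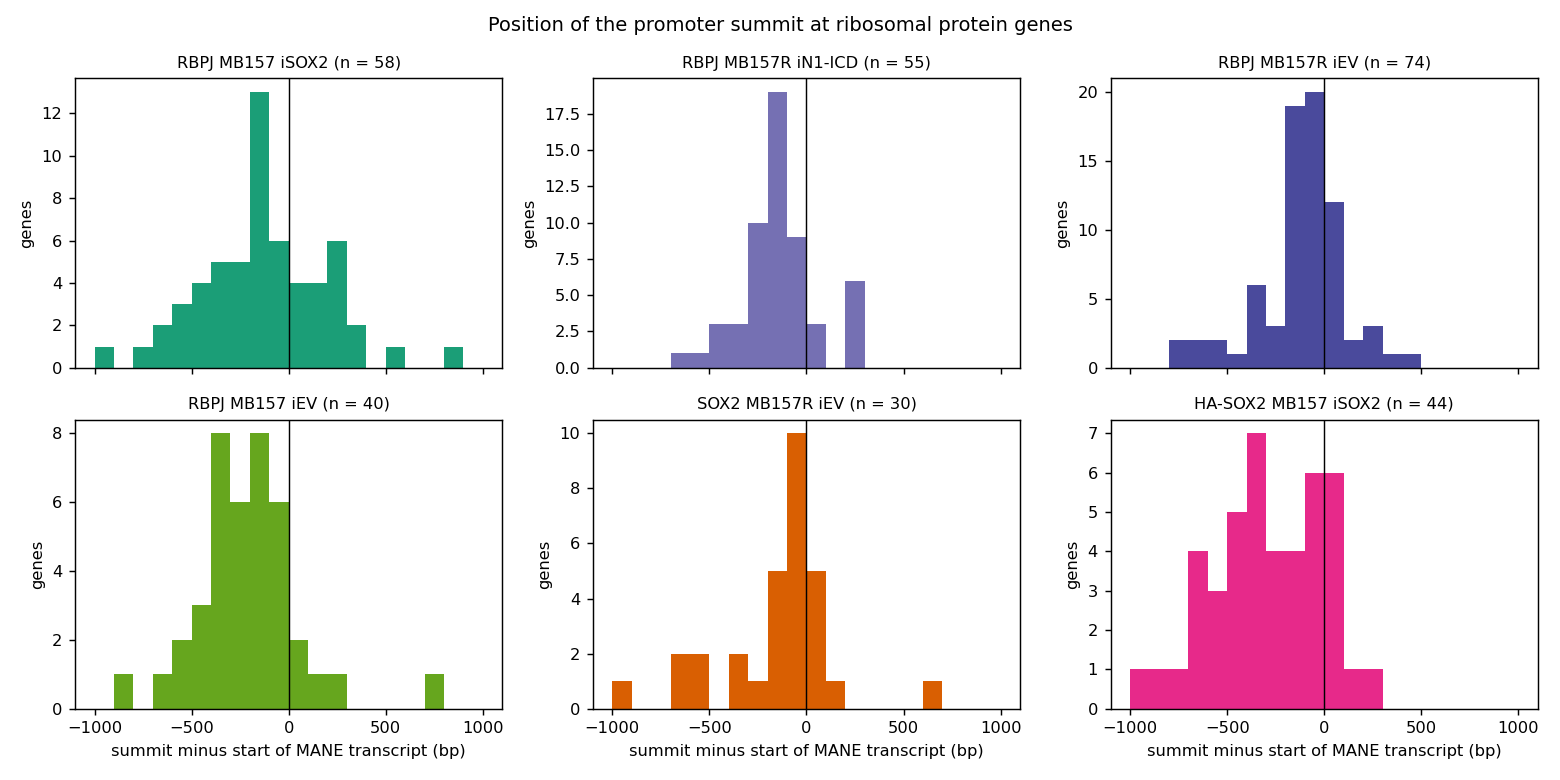
Position of the strongest promoter summit relative to the MANE start (horizontal axis, bp, negative upstream, bins of 100 bp) for the called ribosomal protein genes in 6 lists, as counts of genes. Summits over 1 kb from the MANE start are left out. Most summits lie upstream, with a median of -100.5 bp in the RBPJ list of MB157R iEV and -313.5 bp in the HA-SOX2 list of MB157 iSOX2.

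The 10 genes without an RBPJ summit fell into 2 kinds. For RPL22, RPL4, RPL36, RPL10 and the paralog RPL39L the 5′ end of the gene model lies 8422 to 41412 bp from the MANE start, and an RBPJ summit was present at the MANE start. There RPL10, which joins the large subunit last during its maturation, had folds of 4.88 in MB157 iSOX2, 11.3 in MB157R iN1-ICD, 9.19 in MB157R iEV and 10.8 in MB157 iEV. RPL22 had 6.33, 7.41, 8.26 and 6.14, and RPL36 had 3.65, 4.23, 7.31 and 4.26. RPL4 had 4.28, 3.78 and 6.84 in the first 3 of these lists, and RPL39L had 4.55 in MB157 iSOX2 and 3.85 in MB157 iEV. The other 5 genes had no RBPJ summit at either start. They were RPS3 at the mRNA entry site of the small subunit, RPS27, a zinc finger protein of the same subunit, RPL35A, and the paralogs RPL10L and RPL3L, which are known from testis and from striated muscle. RPS3 had SOX2 and RPL35A HA-SOX2 at its promoter, as described below. With the MANE start in place of the 5′ end of the gene, 66, 62, 81 and 46 members were called in the 4 RBPJ lists. No share over all genes at the MANE start is set beside these counts, so they do not show an excess of members.

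The paralogs differed from their core partners. RPL3, a protein near the peptidyl transferase center, was called in all 4 RBPJ lists with folds of 3.51 to 7.87 and RPL3L in 0. RPL39 had the folds given above, while RPL39L was called only at its MANE start. RPL26L1 was called in MB157R iN1-ICD (5.85), MB157R iEV (4.87) and MB157 iEV (4.98), and RPL26 in all 4 lists (3.15 to 4.72). RPL22L1 had folds of 4.52, 3.37 and 6.86 in the same 3 lists as RPL26L1. RPL36AL had 7.97, 6.74 and 7.04 in MB157 iSOX2, MB157R iN1-ICD and MB157R iEV, against 3.26 in MB157 iSOX2 and 4.85 in MB157R iEV for RPL36A. RPL36AL shares its promoter region with MGAT2, and its summits were nearer to the start of that gene. RPL7L1, a ribosome assembly protein, had 6.77, 4.99 and 7.79 in those 3 lists, while RPL7 had 6.62, 4.96 and 6.78 in MB157 iSOX2, MB157R iEV and MB157 iEV. At its MANE start, 2156 bp from the 5′ end of the gene, RPL7 was called in all 4 RBPJ lists, with 5.56 in MB157 iSOX2, 4.99 in MB157R iN1-ICD, 9.70 in MB157R iEV and 8.24 in MB157 iEV. RPS27L, a p53 target, had 3.99 in MB157R iN1-ICD and 5.41 in MB157R iEV, whereas RPS27 had no summit. Of the readthrough genes, the promoter summits were those of RPS10, RPL17 and RPL36A, and RPS19BP1 was called in MB157R iN1-ICD (3.38) and MB157R iEV (4.55).

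The first comparison asked what induced SOX2 did to RBPJ in MB157 cells. Of 43 members called in MB157 iEV, 38 kept a summit in MB157 iSOX2 and 5 were lost (11.6%, against 9.46% of all genes), while 22 of the 46 members not called in MB157 iEV were gained (47.8%, against 25.8%). The gained genes of highest fold in MB157 iSOX2 were RPL36AL (7.97), RPL12 of the stalk base (7.25), RPL13A (7.02), RPL7L1 (6.77) and the X-linked RPS4X (6.42). The summits of RPL36AL and RPL12 were nearer to another protein-coding start than to their own, and LRSAM1 starts within 1 kb of RPL12. The lost genes had folds in MB157 iEV of 6.86 (RPL22L1), 6.22 (RPL6), 4.98 (RPL26L1), 4.23 (RPLP0) and 4.06 (RPL27A). RPL6 was lost only at the 5′ end of its gene model, 9233 bp from the MANE start, where RBPJ had a fold of 4.05 in MB157 iSOX2 and 4.39 in MB157 iEV. The median fold of the gained genes was 4.00, against 4.94 over all promoters called in that list. The latter include promoters called in both lists. Gained promoters of all genes were not summarised apart, so this gap cannot be read as a trait of the members. The RBPJ list of MB157 iSOX2 also had more peaks (34521, against 25243 in MB157 iEV) and a higher genome background (2.04 against 1.60 fragments). With all RBPJ lists shortened to the length of the MB157 iEV list, 15 members were gained (32.6%, against 17.9% of all genes) and 12 lost (27.9%, against 16.1%).

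Where RBPJ was called in both MB157 lists, its median signal was about equal. Fragments at the summit divided by the genome background gave a median ratio of MB157 iSOX2 to MB157 iEV of 0.940 over 38 members (median log2 -0.09, against 0.09 over all 6865 genes called in both). The ratio was over 1.5-fold higher in 1 member (2.63%, against 9.29% of all genes) and over 1.5-fold lower in 2 (5.26%, against 4.56%). RPL39 had 358 fragments in MB157 iSOX2 and 221 in MB157 iEV, a ratio of 1.28 (95% interval 1.08 to 1.52), the only member whose counting interval excluded 1. With the deposited fold, which divides by the local background, the median log2 ratio was -0.079 (0.052 over all genes called in both). Single genes differed more on that scale, both down (RPL11 -0.85, RPS27A -0.79) and up (RPS12 0.63, RPS9 1.22).

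The second comparison asked what the NOTCH1 intracellular domain did to RBPJ in MB157R cells. Of 78 members called in MB157R iEV, 57 kept a summit in MB157R iN1-ICD and 21 were lost (26.9%, against 27.9% of all genes), and of the 11 members not called in MB157R iEV 0 were gained (0%, against 5.76%). The lost genes of highest fold were RPL29 (7.88 in MB157R iEV), RPS15 (6.89), RPS15A (6.36), RPS14 (5.92), a gene of the chromosome 5 deletion in myelodysplasia, and RPSA, RPL17 and its readthrough gene (5.67 each). Again the lists differed in length, with 37297 peaks in MB157R iN1-ICD and 46601 in MB157R iEV, while the genome backgrounds were close (1.75 against 1.82 fragments). With lists of equal length, 17 members were lost (30.4%, against 33.5% of all genes) and 8 gained (24.2%, against 7.16%).

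In members called in both MB157R lists the signal was lower in MB157R iN1-ICD, as it was genome-wide. The median ratio of scaled fragments was 0.709 over 57 members (log2 -0.50) and 0.684 over all 8076 genes called in both (log2 -0.55), and 52 of the 57 ratios were not above 1. It was over 1.5-fold lower in 23 members (40.4%, against 46.3% of all genes) and over 1.5-fold higher in 0 (against 0.693%). RPL39 had 95 fragments in MB157R iN1-ICD and 206 in MB157R iEV, a ratio of 0.479 (0.372 to 0.614). RPS27A had 53 and 101 (0.545, 0.384 to 0.768), RPL11 had 48 and 84 (0.594, 0.408 to 0.857), and RPL23A had 89 and 162 (0.571, 0.436 to 0.744). RPL5 with 61 and 65 fragments and RPS12 with 51 and 64 had counting intervals that covered 1. Relative to the median of all genes, the members were 0.052 higher on the log2 scale. With the deposited fold the log2 ratio was -0.59 for RPL5 and -0.0099 for RPS12, against a median of -0.35 over the 57 members.

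The third comparison set resistant against parental cells. All 43 members called in MB157 iEV were also called in MB157R iEV, so 0 were lost (0%, against 12% of all genes), and 35 of the other 46 were gained (76.1%, against 36.6%). Among the gained genes of high fold in MB157R iEV were RPL13A (14.2), RPS7 (9.11), RPS2 (8.50) and RPL12 (8.07), and their nearest RBPJ summit in MB157 iEV was at least 16.6 kb away. RPS7 is another protein that binds MDM2, and RPS2 lies at the mRNA entry of the small subunit. The RPL12 summit in MB157R iEV was again nearer to another protein-coding start. The median fold of the 35 gained genes was 5.67 (2.41 to 14.2), against 6.38 over all promoters called in MB157R iEV, gained or not. As before, this gap cannot be read as a trait of the members. The RBPJ list of MB157R iEV had 46601 peaks and that of MB157 iEV 25243, with genome backgrounds of 1.82 and 1.60 fragments. With lists of equal length, 22 members were gained (47.8%, against 22.9% of all genes) and 9 lost (20.9%, against 26.2%). MB157 iEV was the control of the first comparison as well, and MB157R iEV that of the second, so the 3 comparisons are not independent.

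Among members called in both iEV lists, most of the strong sites had more fragments in MB157R iEV, RPL39 excepted. The median ratio of scaled fragments of MB157R iEV to MB157 iEV was 1.32 over 43 members (log2 0.40) and 1.35 over all 6669 genes called in both (log2 0.43). It was over 1.5-fold higher in 18 members (41.9%, against 39.8%) and over 1.5-fold lower in 2 (4.65%, against 7.29%). RPL23A had 162 fragments in MB157R iEV and 30 in MB157 iEV, a ratio of 4.75 (3.21 to 7.27), and RPL11 had 84 and 27, a ratio of 2.74 (1.76 to 4.40). RPS12 had 64 and 24 (2.35, 1.45 to 3.93) and RPS25 had 96 and 42 (2.01, 1.39 to 2.97). In contrast, RPL39 had 206 and 221 (0.821, 0.675 to 0.997). With the deposited fold, which divides by the local background, the log2 ratio of RPL23A was 0.75 in place of 2.25, below those of RPS28 (1.36), RPL11 (1.29) and RPL24 (1.27), and that of RPL39 was -0.026. Relative to the median of all genes, the members differed by -0.028 on the log2 scale.

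**Figure D5:**
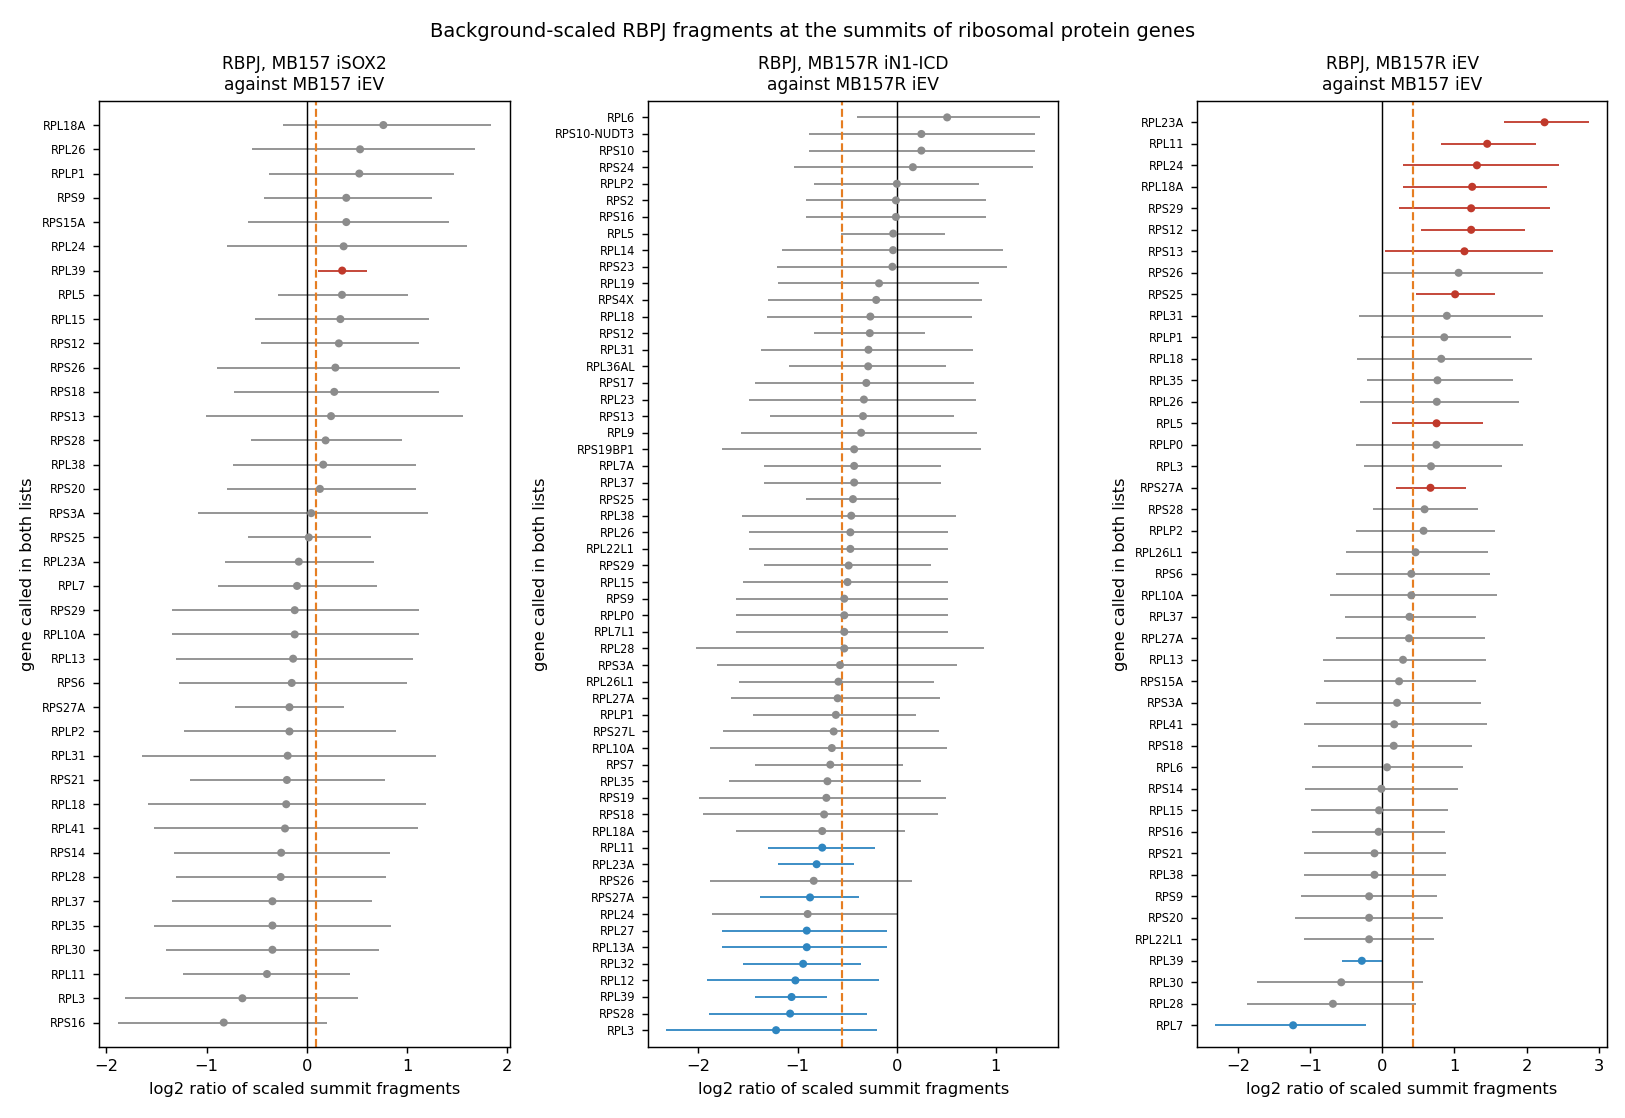
Log2 ratio of RBPJ summit fragments, scaled by the genome background of each list, for the ribosomal protein genes called in both lists of a comparison (1 gene is not drawn). Points are genes, lines are 95% intervals from counting alone (red above and blue below a ratio of 1), and the dashed line is the median of all genes called in both lists. RPL39 is higher in MB157 iSOX2 and lower in MB157R iN1-ICD, and on this scale RPL23A has the highest ratio of MB157R iEV to MB157 iEV (log2 2.25, but 0.75 with the deposited fold).

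SOX2 occupied fewer ribosomal protein promoters than RBPJ and with low folds. In MB157R iEV 31 of the 89 genes were called (34.8%, against 21.8% of all genes), 18 of the large and 11 of the small subunit, with a median fold of 3.75, against 4.39 over all called promoters. The highest folds were those of RPL27 (7.83, from 46 fragments), RPL11 (6.07), RPL5 (6.01), RPL3 (5.74) and RPL23 (5.18), another large subunit protein that binds MDM2. In MB157R iN1-ICD the SOX2 list held 323 peaks, against 37963 in MB157R iEV, and 0 of the 89 genes were called (0.0751% of all genes were). All 31 were therefore lost (100%, against 99.7% of all genes). The genome background of the SOX2 list was 1.74 fragments in MB157R iN1-ICD and 1.96 in MB157R iEV. The study reports lower SOX2 RNA and protein in MB157R cells after induction of the NOTCH1 intracellular domain. The cause of the loss was not tested here.

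Induced HA-SOX2 in MB157 cells was called at 46 genes (51.7%, against 34% of all genes), and the HA control of MB157 iEV at 0 (0.0801% of all genes were), from 1 library of lower depth. The median fold was 4.11, against 4.32 over all called promoters. RPL41, the smallest ribosomal protein, had by far the highest fold, 12.1 from 54 fragments, followed by RPL23 (7.09), RPL38 (6.90), known in mice for translation of Hox mRNAs, RPS24 (6.17) and RPS12 (6.02). The HA-SOX2 list was the longest, and cut to the length of the SOX2 list of MB157R iEV it kept 2 of the 46 members (4.35%) and 11.7% of all promoters called. Of the 31 genes with SOX2 in MB157R iEV, 23 also had HA-SOX2 in MB157 iSOX2 (74.2% of the SOX2 and 50% of the HA-SOX2 genes, against 70.3% and 45% over all genes). RPS3, where no RBPJ summit was called, had a fold of 5.04 for SOX2 and 3.15 for HA-SOX2, and RPL35A had 4.07 for HA-SOX2.

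The SOX motif was about as frequent at SOX2 summits of these promoters as at others. ACAANG was found within 100 bp of the SOX2 summit at 35.5% of 31 members (38.8% of all called promoters) and of the HA-SOX2 summit at 43.5% of 46 members (39%). Among the 10 members of highest fold it was found at 3 for SOX2 in MB157R iEV, against 38.1% of the remaining members, and at 7 for HA-SOX2 in MB157 iSOX2, against 36.1%. Of the 5 genes of highest SOX2 fold, RPL3 and RPL5 had a match to ACAANG, shown in capitals and here read on the opposite strand, as CNTTGT. The match of RPL3 has the form ACAATG. That of RPL5 reads ACAAGG, which fits only the wider search pattern.
RPL5, chr1:92831944-92831973, plus strand: gaacgtaaaacgCCTTGTggccgacgccct
RPL3, chr22:39319552-39319581, minus strand: tggcggccgtttCATTGTcaccggcgtcgg
The match was centred at the summit in RPL5 and 24 bp from it in RPL3.

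Most ribosomal protein promoters with a SOX2 or HA-SOX2 summit also had an RBPJ summit nearby, as was the case over all genes. In MB157R iEV their summits lay less than 500 bp apart at 28 genes, which were 35.9% of the 78 with RBPJ (against 31.7% over all genes) and 90.3% of the 31 with SOX2 (against 81.6%). In MB157 iSOX2 the RBPJ and HA-SOX2 summits lay less than 500 bp apart at 33 genes, 55% of the 60 with RBPJ (against 45.1%) and 71.7% of the 46 with HA-SOX2 (against 66.8%). For mitochondrial ribosomal protein genes these shares were 37.7% and 89.7% in MB157R iEV, and 63.2% and 85.7% in MB157 iSOX2. RBPJ by itself was called at 87.6% of the 89 genes in MB157R iEV and at 67.4% in MB157 iSOX2. The median distance between the strongest summits was 109.5 bp in MB157R iEV and 194 bp in MB157 iSOX2. RPL5 illustrates the closeness, with SOX2 at -82 bp and RBPJ at 15 bp in MB157R iEV. HA-SOX2 summits lay farther upstream than SOX2 summits, with medians of -313.5 bp in MB157 iSOX2 (all called promoters, -210 bp) and -89 bp in MB157R iEV (all called promoters, -154 bp). In mitochondrial ribosomal protein genes the medians were -67.5 and -69 bp. The 2 lists differ in antibody, in cells, in induced against endogenous SOX2 and in the genes called, which cannot be told apart here.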

How the data were processed

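Per the study's methods, the authors mapped paired reads to hg38 (BWA), pooled the libraries of a group and ran MACS2 in narrow mode with the input as control. The 8 deposited lists give peak positions, a score (10 times the −log10 q as a whole number), the fold ratio at the summit, the −log10 p and −log10 q, and the other columns of the format, including the deposited offset of the summit. Read totals per library were not used here. Solving the fold and −log10 p for each peak returned the number of fragments at the summit, as a whole number, and the expected background (at least 98.7% of peaks in each list within 0.05% of the deposited value). The smallest background was taken as the genome background and was used to scale fragments. Recovery was tested on simulated data. Genes came from GENCODE 44. A gene with several summits within 1 kb was given the one of highest fold. Poisson intervals are exact at 95%. Ratios have exact binomial intervals and were called beyond 1.5-fold. Matching strings were counted on both strands of hg38. Genes were named by fold (the 5 highest per list, and the 5 highest lost and gained per comparison), with all members lacking an RBPJ summit and all paralog pairs. The values of 1 member are not reported here by name, although it is in all counts. The members, gene lists and this rule were chosen with earlier results of these data known, and the motif search was added after the folds had been seen. Alternatives were 500 bp, a peak covering the TSS, a −log10 q of at least 5, the MANE start, lists of equal length, centred ratios and the deposited fold. Scripts used scipy 1.17.1 and pandas 2.3.3 under Python 3.11.15, with matplotlib 3.10.9 and numpy 2.4.6.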

Additional observations from a re-analysis of the deposited data

How the results depend on the processing

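Peaks were called on pooled libraries, so no replicate could be left out. No paired analysis was possible because the lists carry no replicate numbers. With a peak that had to cover the TSS, the members called were 39 (RBPJ, MB157 iSOX2), 28 (RBPJ, MB157 iEV), 16 (SOX2, MB157R iEV) and 26 (HA-SOX2), co-occupied members numbered 15 in MB157R iEV and 18 in MB157 iSOX2, and lost members 9, 33, 1 and 16 in the order MB157 iSOX2, MB157R iN1-ICD and MB157R iEV for RBPJ, then SOX2 in MB157R iN1-ICD. With a −log10 q of at least 5, the members called were 36, 27, 11 and 28 in the same order of lists, those co-occupied 9 and 13, those lost 8 in MB157 iSOX2, 3 in MB157R iEV and 11 for SOX2, and those gained 4 in MB157R iN1-ICD. With lists of equal length, RBPJ was called at 51.7% of members in MB157 iSOX2, 52.8% in MB157R iN1-ICD and 62.9% in MB157R iEV. Over all genes these shares were 43%, 32.2% and 42.2%. HA-SOX2 was then called at 2 members (2.25%, against 3.98% of all genes), and co-occupied members in MB157 iSOX2 numbered 1. Lost members were 12 in MB157 iSOX2 and 9 in MB157R iEV, and gained members 8 in MB157R iN1-ICD and 22 in MB157R iEV. A limit of 500 bp gave 2 gained members in MB157R iN1-ICD and 1 lost in MB157R iEV, and the MANE start also gave 1 lost there. The core genes alone, an alternative chosen after seeing the data, gave 3 lost in MB157 iSOX2. Centring the scaled fragments on all genes turned the median log2 ratio to 0.052 for MB157R iN1-ICD and to -0.028 for MB157R iEV, by its construction. The deposited fold in place of scaled fragments kept the sign of all 3 medians. The cause of the other differences was not tested. No shares over all genes are set beside the counts for a covering peak, a −log10 q of at least 5, 500 bp or the MANE start. Whether the members exceeded all genes under these 4 settings was not tested.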

Other observations

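Other genes whose mRNAs carry a TOP tract, 18 translation factors and similar genes such as EEF2 and TPT1, had RBPJ summits at 13 promoters in MB157 iSOX2, 14 in MB157R iN1-ICD, 14 in MB157R iEV and 10 in MB157 iEV, which were 72.2%, 77.8%, 77.8% and 55.6% of them, against 50.4%, 43%, 56.1% and 38% of all genes. Their median RBPJ fold was 5.27, 5.87, 8.15 and 5.01 in the same lists, against 4.40, 5.17, 6.03 and 4.95 for the ribosomal protein genes. SOX2 was called at 5 of them in MB157R iEV (27.8%, against 21.8% of all genes) and HA-SOX2 at 10 in MB157 iSOX2 (55.6%, against 34%).

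Ribosomal protein pseudogenes, 1597 mostly processed copies without the parental promoter, had a summit within 1 kb at 28 copies for RBPJ in MB157 iSOX2, 23 in MB157R iN1-ICD, 33 in MB157R iEV and 22 in MB157 iEV, which were 1.38% to 2.07% of them. HA-SOX2 was called at 118 copies (7.39%) and SOX2 in MB157R iEV at 26 (1.63%), from lists of 108203 and 37963 peaks. Over all protein-coding genes the shares were 34% and 21.8%, and for RBPJ 38% to 56.1%. The share at random positions was not computed.

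The 29 members that contain a small nucleolar RNA, which guides modification of rRNA and is cut from the introns of its host, had a SOX2 summit in MB157R iEV at 14 genes (48.3%), against 17 of the 60 members without one (28.3%). HA-SOX2 was called at 58.6% of the hosts and 48.3% of the others. For RBPJ the shares of hosts and others were 79.3% and 61.7% in MB157 iSOX2 cells, 62.1% and 65% in MB157R iN1-ICD, 89.7% and 86.7% in MB157R iEV, and 48.3% and 48.3% in MB157 iEV. Over all genes SOX2 was called at 21.8%, HA-SOX2 at 34%, and RBPJ at 50.4%, 43%, 56.1% and 38%.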
